A study of Mus musculus with 10 samples.

Results

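Fgfbp1, Fgfbp3, 4 fibroblast growth factors (FGFs) and 4 FGF receptor genes were followed across 10 tumour libraries: the carrier genes Fgfbp1 and Fgfbp3, the ligand genes Fgf1, Fgf2, Fgf7 and Fgf10, and the receptor genes Fgfr1, Fgfr2, Fgfr3 and Fgfr4. These 10 genes were chosen from measured values of the same knockout against wild-type contrast, in which Fgfbp1 was low, so the differences of the 10 between genotypes are given as a description with no test. Of the 10, 9 were among the 18047 genes of the deposited table, and Fgfr4 was not analysed here. All 9 passed the minimum of a mean of 10 normalized counts over the libraries.

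FGFs are secreted growth factors that bind heparan sulfate chains on cell surfaces and in the matrix, and a ligand, a heparan sulfate chain and a receptor tyrosine kinase together form the signalling complex. Fgfbp1 is a secreted carrier that binds FGFs held in the matrix and releases them in soluble form to their receptors. It is known as an epithelial gene, made in skin and squamous epithelium and in several carcinomas. Receptor activity passes through Frs2, Ras and the MAP kinases, and it induces feedback inhibitors of the Sprouty, Spred and Dusp families.

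The tumours were grown from 4T1, a mouse mammary carcinoma cell line derived from the BALB/c strain. Trop2 knockout (KO) and wild-type (WT) 4T1 cells were grown in BALB/c mice for 3 weeks, and total RNA of frozen tumour sections was sequenced after ribosomal RNA depletion, giving 5 KO libraries (KO1 to KO5) and 5 WT libraries (WT1 to WT5). The labels give no age of the mice and do not say how the KO cells were made, how many clones they represent, or whether each library is a separate animal, so p-values measure only the spread between these libraries. The hosts were not labelled as knockout, and the RNA is that of carcinoma and host cells together.

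Library totals ran from 8609756 reads in KO1 to 19934428 in WT4. Summed keratinocyte markers stood apart in 3 WT libraries, at 781 normalized counts in WT2, 6885 in WT3 and 3846 in WT5, against 77.3 in WT1, 81.1 in WT4 and 41.0 to 107 in the KO libraries. In the KO libraries, 4 of the 11 keratinocyte markers measured (Krt1, Flg2, Dsg1a and Lce1c) were at 0. The same genes were at 0 in WT1 and, but for Dsg1a at 2.17, in WT4. Summed carcinoma and simple epithelium markers (12 genes, including Epcam, Krt8 and Krt18) were at 13272 to 18594 in KO libraries. In WT libraries they were at 18878 to 32026, without overlap but narrowly apart. Taken singly, each marker overlapped between genotypes, as did Krt8 with 6182 in KO4 and 4340 in WT3. All 12 were above 0 in each KO library and in WT1 and WT4, the WT libraries with few keratinocyte transcripts. Library names of KO5 and WT1 to WT4 carry the prefix RESUB, and the names of WT2 and WT5 share the number 170; what these mark was not given.

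Fgfbp1 was lower in every KO library than in any WT library. The gene (ENSMUSG00000048373) lies on the minus strand at chr5:43978858-43981779 of GRCm38. Its level was 69.9, 120, 107, 94.0 and 101.3 normalized counts in KO1 to KO5. It was 177, 178.5, 518, 289 and 317 normalized counts in WT1 to WT5. The KO values formed a narrow band, whereas the WT values spread from the pair WT1 and WT2 up to WT3. The KO mean was 98.4 ± 18.6 (SD, n = 5) and the WT mean 296 ± 139 (SD, n = 5), a WT mean 3.01 times the KO mean. On the log2 scale (of normalized counts plus 1) the KO minus WT difference was -1.48 ± 0.29 (SE). The lowest WT value, in WT1, was 1.47 times the highest KO value, in KO2. At least 50 reads of Fgfbp1 were counted in each library.

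Because the genes were chosen on this contrast, the shares over all genes are given beside their counts for scale only. Among the 9 genes, Fgfbp1 alone had groups that did not overlap with KO lower (1 of 9), and none had KO higher. Over all 17975 genes tested, 0.734% had non-overlapping groups with KO lower and 0.684% with KO higher. In the limma fit over all genes, with Benjamini-Hochberg adjustment at 0.05, 0.00556% of genes (1 gene) were lower in KO and 0% higher, and 0 of the 9 were among them. edgeR gave the same shares, 0.00556% lower and 0% higher, with 0 of the 9. DESeq2 on the recovered reads called 0.529% of genes lower, with 1 of the 9, Fgfbp1, among them, and 0.145% higher, with none.

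**Figure D1:**
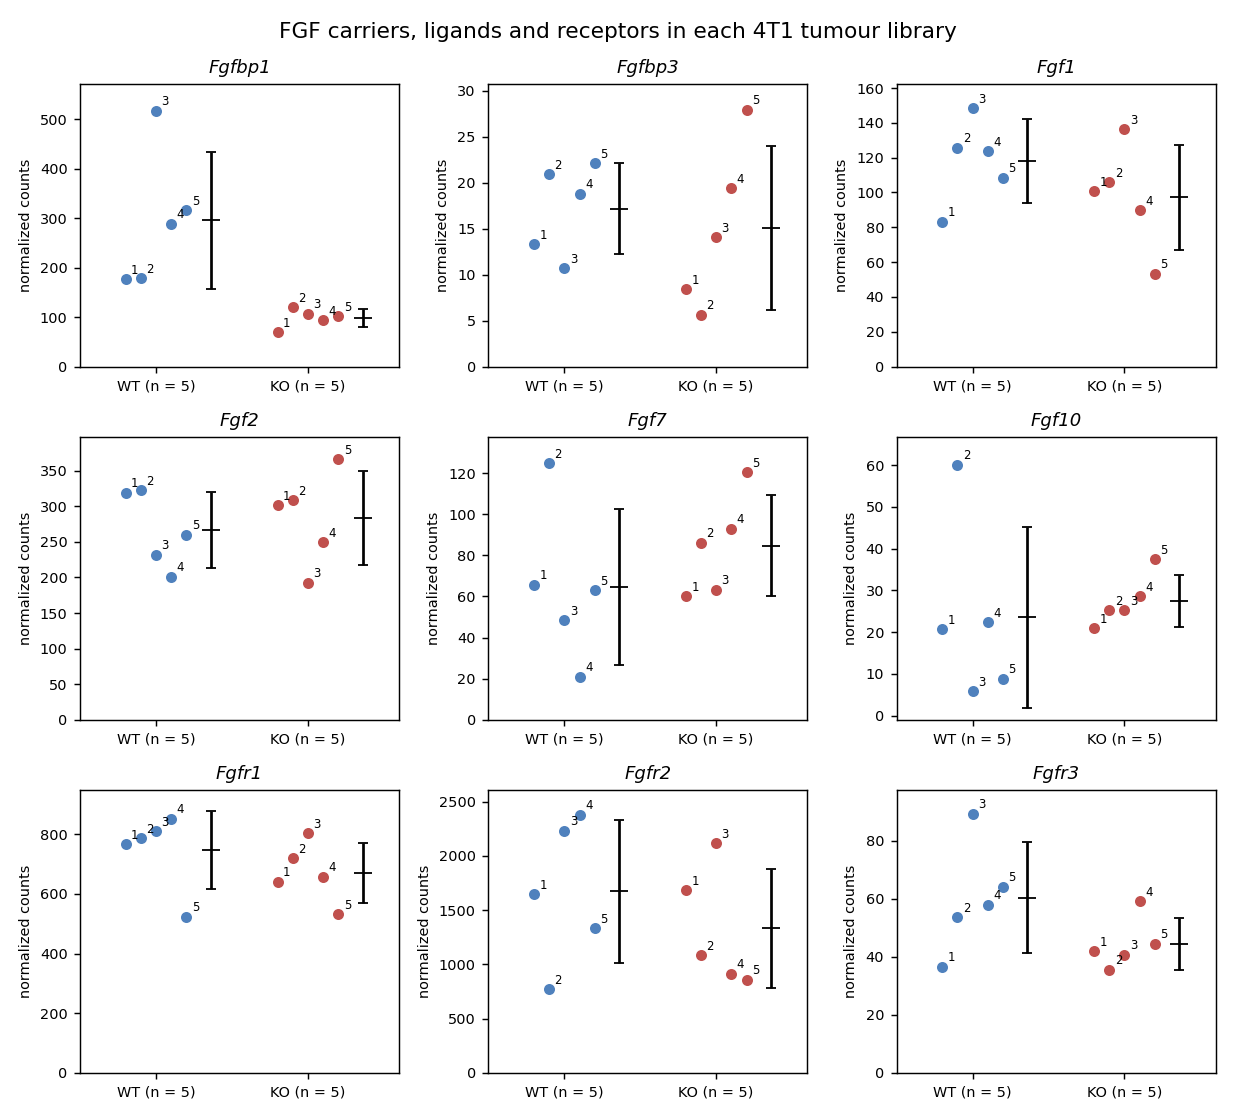
Normalized counts (vertical axes, from 0 except where an error bar goes lower) of the 9 genes in 5 WT (blue) and 5 KO (red) libraries. Small digits are replicate numbers and black bars are mean ± SD. The KO points of Fgfbp1, 69.9 to 120, all sit under the lowest WT point, 177, while the groups of the other 8 genes overlap.

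The bases upstream of the 2 carrier genes are shown because the carriers are the related pair of which 1 differed and 1 did not separate the genotypes. The bases printed are those of the 250 before the RefSeq start (build GRCm38.p6) that lie outside the annotated gene, on the minus strand, 5′ to 3′. Fgfbp1 is chr5:43981800-43982049 and Fgfbp3 is chr19:36919616-36919849. Capitals mark a match to the TATA box letters, read on the other strand.
Fgfbp1: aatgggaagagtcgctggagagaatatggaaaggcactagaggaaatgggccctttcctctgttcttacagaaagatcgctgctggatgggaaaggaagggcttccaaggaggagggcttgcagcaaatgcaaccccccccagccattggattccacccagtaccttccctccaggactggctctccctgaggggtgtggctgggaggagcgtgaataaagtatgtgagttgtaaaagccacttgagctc
Fgfbp3: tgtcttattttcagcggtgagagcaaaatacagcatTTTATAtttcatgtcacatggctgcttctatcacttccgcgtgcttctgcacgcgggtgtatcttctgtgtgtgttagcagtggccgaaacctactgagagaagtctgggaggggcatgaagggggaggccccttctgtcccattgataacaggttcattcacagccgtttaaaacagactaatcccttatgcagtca
RefSeq windows were found for 8 of the 10 genes (9 windows, with 2 for Fgfr3). The bases just after the RefSeq start were found in an annotated transcript of the gene for all but Fgfbp1 and Fgfr2. For motifs, all 250 bases of each window were searched on both strands, also those inside the annotated gene. The letters were the TATA box TATAAA, AP-1 TGANTCA, the GC box GGGCGG, the Zeb and Snail E-box CACCTG and C/EBP TTGCNNAA. The windows of Fgfbp1, Fgf7 and Fgfr2 held none of the 5. That of Fgfbp3 held 1 TATA box, which is found in 12.4% of 32851 RefSeq windows of the same length. GC boxes, present in 32.7% of windows, were found in Fgf2 (1), Fgf10 (1), Fgfr4 (2) and both windows of Fgfr3 (3 and 2, the latter 2 sharing 1 base); no match overlapped one to another motif. The GC boxes of Fgf2, Fgf10, Fgfr4 and the second Fgfr3 window lay inside the annotated gene. So did the match nearest the start in the first Fgfr3 window. AP-1 letters are in 6.75%, the E-box in 17.2% and C/EBP letters in 9.56% of all windows. A match describes letters only and is not a binding site.

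Markers of epithelial cells differed between the libraries in the same direction as Fgfbp1. All 12 carcinoma and simple epithelium markers had a lower KO value, with a median log2 difference of -0.98 against -0.01 over all genes tested, although limma called none of the 12. Epcam, the epithelial adhesion molecule, was at 1759, 551, 1890, 1619 and 767 normalized counts in KO1 to KO5 and at 3790, 1843, 3361, 3698 and 2086 in WT1 to WT5. Only KO3 lay above the lowest WT value, that of WT2. Markers of other cell types also had lower or higher KO values, with 0 genes called by limma. All 11 keratinocyte markers had a lower KO value (median -4.14). The fibroblast list was near level, with 6 lower and 4 higher values (median -0.05). All 8 skeletal muscle markers had a lower KO value (median -1.88). All 6 neutrophil and all 6 T cell markers had a higher one (medians 0.70 and 0.60). KO values were lower for 7 of 8 adipocyte markers (median -1.53) and 5 of 6 pericyte and smooth muscle markers (-0.27). They were higher for 5 of 6 macrophage (0.19) and 6 of 8 endothelial markers (0.14). Their sums overlapped between genotypes, at 474 to 5850 in KO and 228 to 107000 in WT for muscle, 961 to 2619 and 553 to 2901 for neutrophils, and 291 to 754 and 206 to 494 for T cells. Of the 10 marker lists, the fibroblast list had the within-group correlation with Fgfbp1 farthest from 0, at -0.77, against 0.58 for keratinocyte and 0.20 for carcinoma markers (10 libraries, which share depth and cell makeup between the measures). With the fibroblast score in the model the log2 difference of Fgfbp1 was -1.54, and with the adipocyte score -1.63. The part of the muscle, neutrophil, T cell, pericyte, macrophage and endothelial markers in the Fgfbp1 difference was not tested.

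Set against Epcam, Fgfbp1 no longer separated the genotypes. It stood at 10.1 ± 7.4 counts (SD, n = 5; 3.97 to 21.8) per 100 Epcam counts in KO and 10.6 ± 4.7 (SD, n = 5; 4.67 to 15.4) in WT libraries. The highest ratio was that of KO2, the library with the lowest Epcam. Against Krt8, a keratin of simple epithelium, Fgfbp1 stood at 2.17 ± 0.60 counts per 100 Krt8 counts in KO (SD, n = 5; 1.52 to 3.00) and 5.72 ± 3.88 in WT libraries (SD, n = 5; 2.79 to 11.9). These ranges met only in KO3 and WT1. In bulk tissue fewer cells of a type and less RNA per cell cannot be told apart. The part of the epithelial markers in the Fgfbp1 difference was not tested beyond a covariate: with the mean log2 level of the 12 markers in the model the log2 difference was -1.31.

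The WT libraries with the highest Fgfbp1, WT3 at 518 and WT5 at 317, also had the highest keratinocyte sums. WT4, with Fgfbp1 at 289, had a keratinocyte sum of 81.1, inside the KO range. Without WT2, WT3 and WT5 the log2 difference of Fgfbp1 was -1.21. That both remaining WT libraries, at 177 and 289, stood above the 5 KO libraries follows from the non-overlapping groups. With the mean log2 level of the keratinocyte markers in the model the log2 difference was -1.03. The part of the keratinocyte markers in the Fgfbp1 difference was not tested beyond these alternatives.

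**Figure D2:**
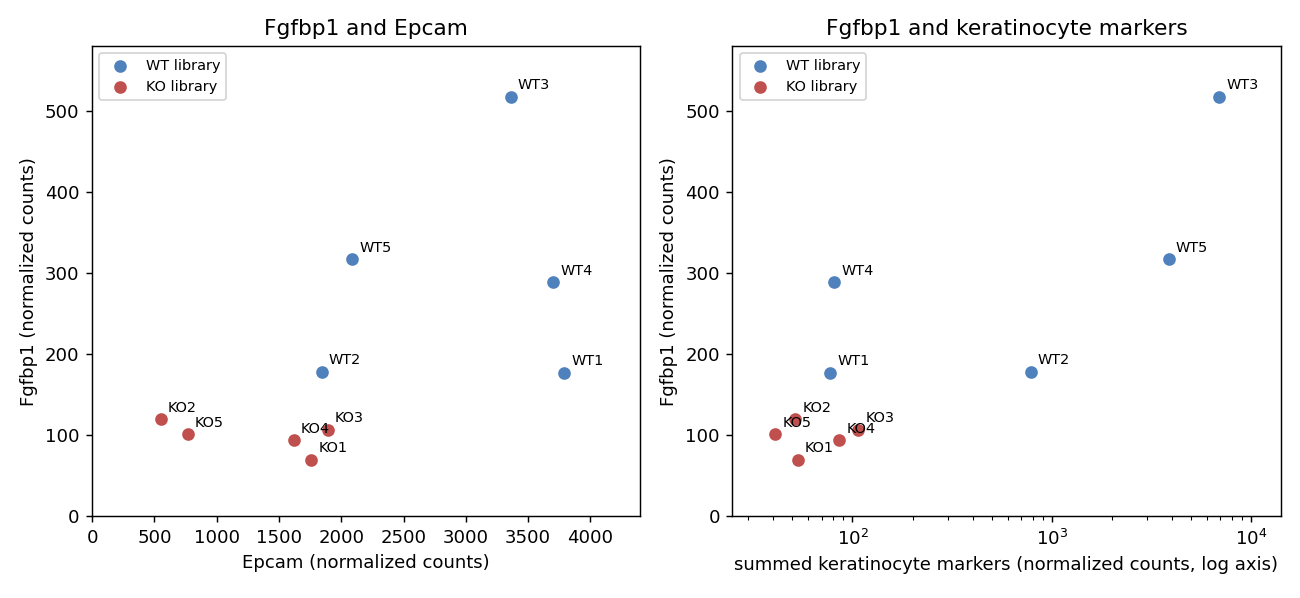
Fgfbp1 (normalized counts, vertical axes) against Epcam (left, linear axis) and against the sum of 11 keratinocyte markers (right, log axis), with 1 point for each of 5 WT (blue) and 5 KO (red) libraries. WT1 and WT4 have high Epcam with a keratinocyte sum near 80, as low as that of the KO libraries. Their Fgfbp1 level is above all KO points, which follows from the non-overlapping groups.

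The direction of the Fgfbp1 difference was the same in all 29 alternatives to the reported fit, which is no sign of stability where libraries are left out, since non-overlapping groups fix it. The log2 difference lay between -1.71, within the libraries without the RESUB prefix, which include 1 WT library, and -1.03, with the keratinocyte covariate. Within the prefixed libraries, which include 1 KO library, it was -1.36, and with the prefix as a term it was -1.54. Leaving out each library in turn gave -1.64 to -1.25, the smallest difference being that without WT3.

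**Figure D3:**
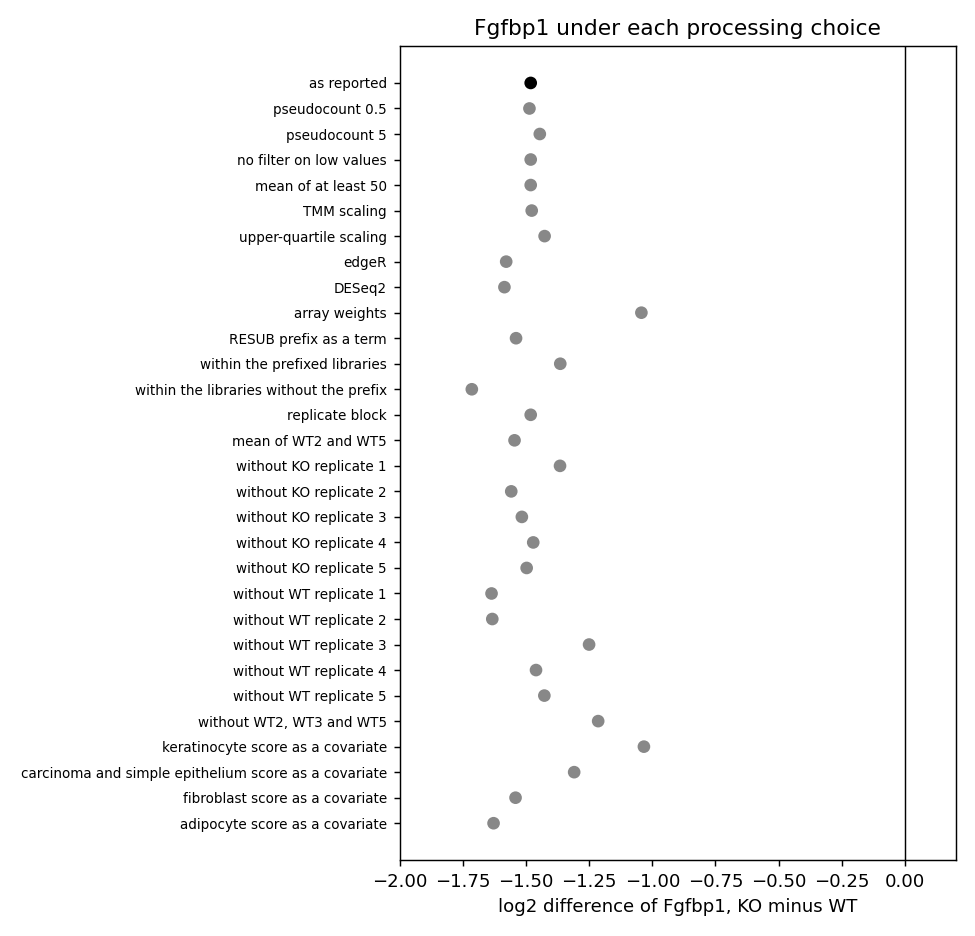
Log2 difference of Fgfbp1, KO minus WT (horizontal axis), as reported (black) and under each of 29 alternatives (grey, named on the vertical axis). Every point lies left of 0, between -1.71 and -1.03.

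Fgfbp3, the related carrier that also binds Fgf1 and Fgf2, was low in both genotypes. Its level was 8.39, 5.63, 14.1, 19.4 and 27.9 normalized counts in KO1 to KO5 and 13.3, 20.9, 10.7, 18.8 and 22.2 in WT1 to WT5. The highest and the 2 lowest values were all KO, and the WT values lay between them. Means were 15.1 ± 8.9 (KO) and 17.2 ± 5.0 (WT; SD, n = 5 libraries each), with a log2 difference of -0.32 ± 0.43 (SE). As few as 6 reads of it were counted in a library.

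Fgf1 and Fgf2 lack a classical signal peptide and are held by heparan sulfate, and both are known cargo of Fgfbp1. Fgf1 was at 100.7, 106, 136, 89.9 and 53.3 normalized counts in KO1 to KO5 and at 83.1, 126, 149, 124 and 109 in WT1 to WT5. KO5 was the lowest library, and the other 4 KO libraries lay inside the WT range. Means (± SD, n = 5 libraries each) were 97.2 ± 30.0 in KO and 118 ± 24.2 in WT. The log2 difference of Fgf1 was -0.31 ± 0.26 (SE).

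Fgf2 was the most abundant of the 4 ligands per length of transcript. It was at 302, 309, 193, 249 and 367 normalized counts in KO1 to KO5 and at 319, 322, 232, 201 and 260 in WT1 to WT5. The highest and the lowest library were both KO. Means were 284 ± 65.8 (KO) and 267 ± 53.3 (WT; SD, n = 5 libraries each), with a log2 difference of 0.08 ± 0.21 (SE). Its exons share 640 bases with Nudt6 on the opposite strand and 255 with Gm43439, and whether the authors counted by strand was not given in the sources used here, so the Fgf2 level is uncertain by the reads of those bases.

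Fgf7 and Fgf10 are ligands made by mesenchymal cells that signal to epithelium through the epithelial form of Fgfr2. Fgf7 was at 60.1, 86.3, 63.3, 93.0 and 120.5 normalized counts in KO1 to KO5 and at 65.7, 125, 48.5, 21.0 and 63.1 in WT1 to WT5. Every KO library lay inside the WT range, which WT2 and WT4 set. Means (± SD, n = 5 libraries each) were 84.6 ± 24.6 in KO and 64.6 ± 38.0 in WT. The log2 difference was 0.55 ± 0.39 (SE), and 0.40 with edgeR or DESeq2. Per 100 counts of Pdgfra, a receptor of fibroblasts, Fgf7 stood at 5.05 ± 2.83 (KO) and 4.50 ± 3.19 (WT; SD, n = 5 libraries each), and the ranges overlapped.

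Of the 9 genes, Fgf10 had the lowest level per length. Its level was 21.0, 25.3, 25.3, 28.6 and 37.5 normalized counts in KO1 to KO5 and 20.8, 60.1, 5.83, 22.4 and 8.86 in WT1 to WT5. The KO libraries were close together and inside the WT range, whose top was WT2 and whose bottom was WT3 with 6 reads. Means (± SD, n = 5 libraries each) were 27.6 ± 6.2 in KO and 23.6 ± 21.7 in WT. The log2 difference, taken between means of log2 values, was 0.61 ± 0.50 (SE). It was 0.23 with edgeR and 0.22 with DESeq2. WT2 was also the WT library with the highest Fgf7 and the highest adipocyte marker sum, 9024 normalized counts against 637 to 3720 in the other WT libraries, and the highest skeletal muscle sum, 107000 against 228 to 11482. Its macrophage sum was the highest too, 19370 against 8067 to 15687. Within groups, Fgf10 correlated at 0.83 with the macrophage score, 0.73 with skeletal muscle and 0.25 with adipocyte (10 libraries). For Fgf7 these correlations were 0.13, 0.55 and -0.17. With the adipocyte covariate the log2 difference was 0.47 for Fgf7 and 0.76 for Fgf10. The part of the macrophage and skeletal muscle sums in the Fgf7 and Fgf10 levels was not tested. With the keratinocyte covariate the log2 difference of Fgf10 was -0.09 and with the carcinoma covariate -0.01, while that of Fgf7 was 0.88 and -0.24.

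Fgfr2, the receptor of Fgf7 and Fgf10 in its epithelial splice form, had the highest level per length of the 9 genes. The gene-level values do not separate its epithelial and mesenchymal forms. Fgfr2 was at 1685, 1083, 2119, 914 and 858 normalized counts in KO1 to KO5 and at 1645, 770.5, 2233, 2380 and 1333 in WT1 to WT5. WT3, WT4 and KO3 were the 3 highest, WT2 was the lowest, and all 5 KO libraries lay inside the WT range. Means were 1332 ± 549 (KO) and 1672 ± 660 (WT; SD, n = 5 libraries each), with a log2 difference of -0.31 ± 0.33 (SE). Its exons share 314 of 10328 bases with Ctbp2 on the same strand. With strand use not known, reads may also be shared by Fgfr3 (998 of 7158 exonic bases with G630022F23Rik), Fgf10 (123 of 4601 with Gm16263) and, over a smaller part of its exons, Fgfr1 (with Gm16159), each on the opposite strand.

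Against Epcam, the Fgfr2 means were in the opposite order. Fgfr2 stood at 115 ± 51.1 counts per 100 Epcam counts in KO (SD, n = 5; 56.4 to 196) and 56.0 ± 12.3 in WT libraries (SD, n = 5; 41.8 to 66.5). Of the KO libraries, KO4 alone was inside the WT range and the other 4 were above it. Against Krt8 the genotypes did not part, at 32.1 ± 20.4 Fgfr2 counts per 100 Krt8 counts (KO) and 30.2 ± 13.8 (WT; SD, n = 5 libraries each). Fgfr2 had a log2 difference of 0.44 with the carcinoma covariate, against -0.31 as reported.

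Fgfr1, a receptor of mesenchymal and many carcinoma cells that binds Fgf1 and Fgf2, overlapped fully between genotypes. It was at 640, 719, 803, 657 and 531 normalized counts in KO1 to KO5 and at 765, 786, 810, 852 and 523 in WT1 to WT5. WT5 stood apart below the other 4 WT libraries, and all 5 KO libraries lay inside the WT range. Means (± SD, n = 5 libraries each) were 670 ± 100.6 in KO and 747 ± 130 in WT. The log2 difference was -0.15 ± 0.18 (SE).

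Fgfr3, which is known from cartilage and from urothelial and epidermal epithelium, was the lowest of the 3 receptors measured. It was at 41.9, 35.6, 40.8, 59.3 and 44.5 normalized counts in KO1 to KO5 and at 36.6, 53.7, 89.3, 57.9 and 64.2 in WT1 to WT5. WT3 was the highest library, and 4 of the 5 KO libraries lay inside the WT range. Means were 44.4 ± 8.9 (KO) and 60.4 ± 19.2 (WT; SD, n = 5 libraries each), with a log2 difference of -0.40 ± 0.26 (SE). WT3 and WT5, the 2 highest libraries for Fgfr3, had the highest keratinocyte sums; without WT2, WT3 and WT5 the difference was -0.07 and with the keratinocyte covariate 0.02.

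Single libraries moved the differences of the 8 genes other than Fgfbp1 by over 1.5 times. Leaving out 1 library gave log2 differences from -0.58 (without KO5) to -0.05 (without KO2) for Fgfbp3, from -0.45 (without KO3) to -0.11 (without KO5) for Fgf1 and from -0.02 (without KO5) to 0.21 (without KO3) for Fgf2. For Fgf7 they ran from 0.21 (without WT4) to 0.84 (without WT2) and for Fgf10 from 0.25 (without WT3) to 1.04 (without WT2). The receptors ran from -0.27 (without WT5) to -0.07 (without KO5) for Fgfr1, from -0.57 (without WT2) to -0.16 (without WT4) for Fgfr2 and from -0.56 (without WT1) to -0.24 (without WT3) for Fgfr3.

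Per kilobase of annotated exon, the mean level over the 10 libraries ran from Fgfr2 at 145 normalized counts per kilobase through Fgfbp1 at 87.1, Fgfr1 at 71.8, Fgf2 at 40.6, Fgf7 at 23.0, Fgf1 at 19.7, Fgfbp3 at 9.10 and Fgfr3 at 7.32 to Fgf10 at 5.56. The place of Fgfbp1 in this order differed between genotypes. In WT libraries Fgfbp1, at 131 per kilobase, stood between Fgfr2 at 161.9 and Fgfr1 at 75.7. In KO libraries, at 43.5, it stood below Fgfr1 at 67.9 and next to Fgf2 at 41.9. Among KO libraries the ranges of Fgfr2, Fgfr1 and Fgfbp1 did not overlap one another, at 83.1 to 205, 53.8 to 81.3 and 30.9 to 53.0 per kilobase, and the ranges of the other neighbours in the KO order overlapped. Among WT libraries Fgf2, at 29.7 to 47.5, lay below Fgfr1, at 52.9 to 86.3, and above Fgf1, at 15.2 to 27.2, and the ranges of the other neighbours in the WT order overlapped.

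Among the 3 receptors measured, the shares of the genotypes overlapped. Fgfr2 made up 61.9% ± 7.5 of the summed receptor level per kilobase (KO) and 64.0% ± 10.2 (WT; SD, n = 5 libraries each). Fgfr1 made up 34.8% ± 6.5 and 32.4% ± 9.7 (SD, n = 5 each), and Fgfr3 3.32% ± 1.32 and 3.59% ± 1.22. WT2 was the 1 library in which Fgfr1, at 49.2%, exceeded Fgfr2, at 46.1%. Among the 4 ligands Fgf2 made up 45.3% ± 6.3 (KO) and 46.4% ± 5.5 (WT; SD, n = 5 libraries each), and Fgf1 20.2% ± 8.2 and 26.4% ± 8.6. Fgf7 made up 28.1% ± 5.2 in KO and 21.7% ± 7.8 in WT, and each of these shares overlapped between genotypes.

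**Figure D4:**
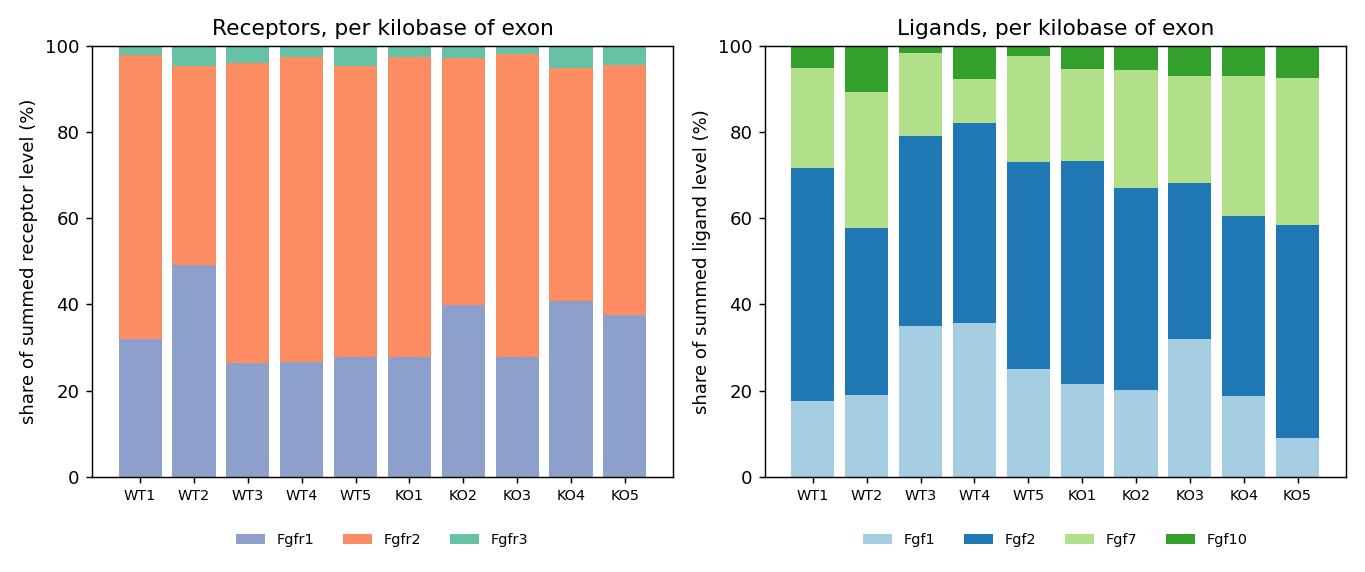
Share (%) of each receptor gene in the summed level of Fgfr1, Fgfr2 and Fgfr3 (left) and of each ligand gene in the summed level of Fgf1, Fgf2, Fgf7 and Fgf10 (right), per kilobase of exon, with 1 bar for each WT and KO library. Fgfr2 is the largest receptor share in all libraries but WT2, and Fgf2 the largest ligand share in every library.

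The other genes of FGF signalling, none of them among the 10, were read from the same limma fit. Of 108 such genes in 6 lists, 86 were measured and tested, and 0 passed the adjusted threshold in either direction with limma, edgeR or DESeq2. At an unadjusted p under 0.05, 5 of the 86 were lower (5.81%, against 3.67% of all genes tested) and 2 higher (2.33%, against 2.82%). Over all genes that was 659 lower and 507 higher, and with upper-quartile scaling 512 lower and 689 higher. Lower values were found for 47 of the 86 and higher values for 39, and the median log2 difference was -0.03, against -0.01 over all genes.

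Of the FGF ligands outside the 10 genes, 5 of 18 were measured, and their median log2 difference was -0.78. Fgf11, an intracellular FGF homologue that is not secreted, was the 1 gene of the 86 (1.16%, against 0.734% of all genes) whose groups did not overlap with KO lower, and none had KO higher. It was at 61.5, 37.5, 59.1, 38.8 and 42.8 normalized counts in KO1 to KO5 and at 71.5, 86.5, 80.6, 88.3 and 80.9 in WT1 to WT5. No KO library reached the lowest WT library, and the WT values were close together. The log2 difference was -0.78 ± 0.22 (SE), with an adjusted p of 0.484 (limma). Fgf23, a hormone of phosphate balance, had a log2 difference of -1.48 ± 0.57 (SE). Its means were 8.29 in KO and 20.6 in WT, with 1 read in KO5. Fgf13, another intracellular homologue, had -1.10 ± 0.45 (SE), and Fgf17, a secreted ligand of the Fgf8 family, 0.94 ± 0.51 (SE); the adjusted p of these 3 was 0.699, 0.724 and 0.823 (limma).

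Coreceptors and receptor partners showed no shared direction. Of 10, 8 were measured, 3 with higher and 5 with lower values, and the median log2 difference was -0.05. The adhesion molecules Nrcam and Ncam1 had log2 differences of 0.27 ± 0.25 and 0.22 ± 0.38 (SE), and Flrt1 and Klb, the beta-Klotho coreceptor of endocrine FGFs, had -0.54 ± 0.61 and -0.47 ± 0.61 (SE). All 4 of these signs turned in at least 1 alternative. Fgfrl1, a receptor without a kinase domain, had means of 249.7 in KO and 252 in WT normalized counts.

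Heparan sulfate proteoglycans carry the chains to which FGFs and Fgfbp1's cargo bind. Of 14 core protein genes 12 were measured, 7 with higher and 5 with lower values, and the median log2 difference was 0.01, though 0.33 without WT4. Sdc1, the epithelial syndecan, was at 2608, 4033, 2853, 4022 and 4492 normalized counts in KO1 to KO5 and at 2373, 1845, 2707, 2891 and 2151 in WT1 to WT5. KO1 and KO3 lay inside the WT range and the other 3 KO libraries above it. The log2 difference of Sdc1 was 0.58 ± 0.20 (SE), opposite in sign to that of the epithelial markers, with an adjusted p of 0.674 (limma). Gpc6 and Gpc3, glypicans, had -0.73 ± 0.35 and -0.81 ± 0.50 (SE), and Sdc2 had -0.24 ± 0.19 (SE). Gpc6 was -0.42 without KO5 and -0.24 with the carcinoma covariate, Gpc3 -0.47 without WT2 or without KO5, and Sdc2 -0.09 without WT5.

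Enzymes that build and trim heparan sulfate had a median log2 difference of -0.24, with 6 of the 17 measured (of 21) higher and 11 lower. Sulf2, an extracellular sulfatase that removes sulfate groups from the chains, was at 513, 304, 609, 456 and 208 normalized counts in KO1 to KO5 and at 726, 615, 743, 1017 and 551 in WT1 to WT5. Only KO3 and WT5 overlapped. The log2 difference of Sulf2 was -0.87 ± 0.28 (SE), with an adjusted p of 0.597 (limma), and it was -0.14 with the carcinoma covariate. Hpse, heparanase, which cleaves the chains and releases bound factors, was at 333, 324, 333, 393 and 352 normalized counts in KO1 to KO5 and at 192, 352, 202, 258 and 255 in WT1 to WT5. WT2 alone among the WT libraries reached the KO range. Its log2 difference was 0.49 ± 0.19 (SE), with an adjusted p of 0.693 (limma). Extl1, a glycosyltransferase of low level, had -1.46 ± 0.56 (SE) and Hs6st2, a sulfotransferase, -0.64 ± 0.31 (SE). Extl1 was -0.22 within the libraries without the RESUB prefix and -0.40 with array weights, and Hs6st2 was -0.36 without KO2 and -0.07 with the carcinoma covariate.

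Genes that relay the receptor signal were nearly level between genotypes. All 26 were measured, 12 with higher and 14 with lower values, and the median log2 difference was -0.06. Frs2, the docking protein of FGF receptors, had -0.16 ± 0.20 (SE), and the MAP kinase Mapk3 had 0.15 ± 0.25 (SE). The 4 genes with the smallest p were Frs3, a relative of Frs2, at 0.89 ± 0.42 (SE), the phosphatase Ptpn11 at -0.26 ± 0.18, the adaptor Gab1 at -0.36 ± 0.27 and the kinase Map2k2 at -0.24 ± 0.25. The lowest adjusted p in this list was 0.780 (limma).

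Feedback and target genes had a median log2 difference of 0.01 over the 18 measured of 19, with 10 higher and 8 lower values. Dusp6, a MAP kinase phosphatase that FGF receptor activity induces, was at a mean of 4333 normalized counts in KO and 4436 in WT, a log2 difference of -0.02 ± 0.16 (SE). The transcription factors Etv4 and Etv5 had 0.01 ± 0.18 and -0.05 ± 0.27 (SE), and the Sprouty inhibitors Spry2 and Spry4 had 0.02 ± 0.23 and 0.02 ± 0.25 (SE). The smallest p in the list belonged to Spred3 at 0.36 ± 0.17 (SE), Myc at -0.33 ± 0.25, Spry1 at -0.38 ± 0.31 and Dusp4 at 0.29 ± 0.26, with a lowest adjusted p of 0.777 (limma). These are transcript levels, and no value here measures receptor or kinase activity.

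**Figure D5:**
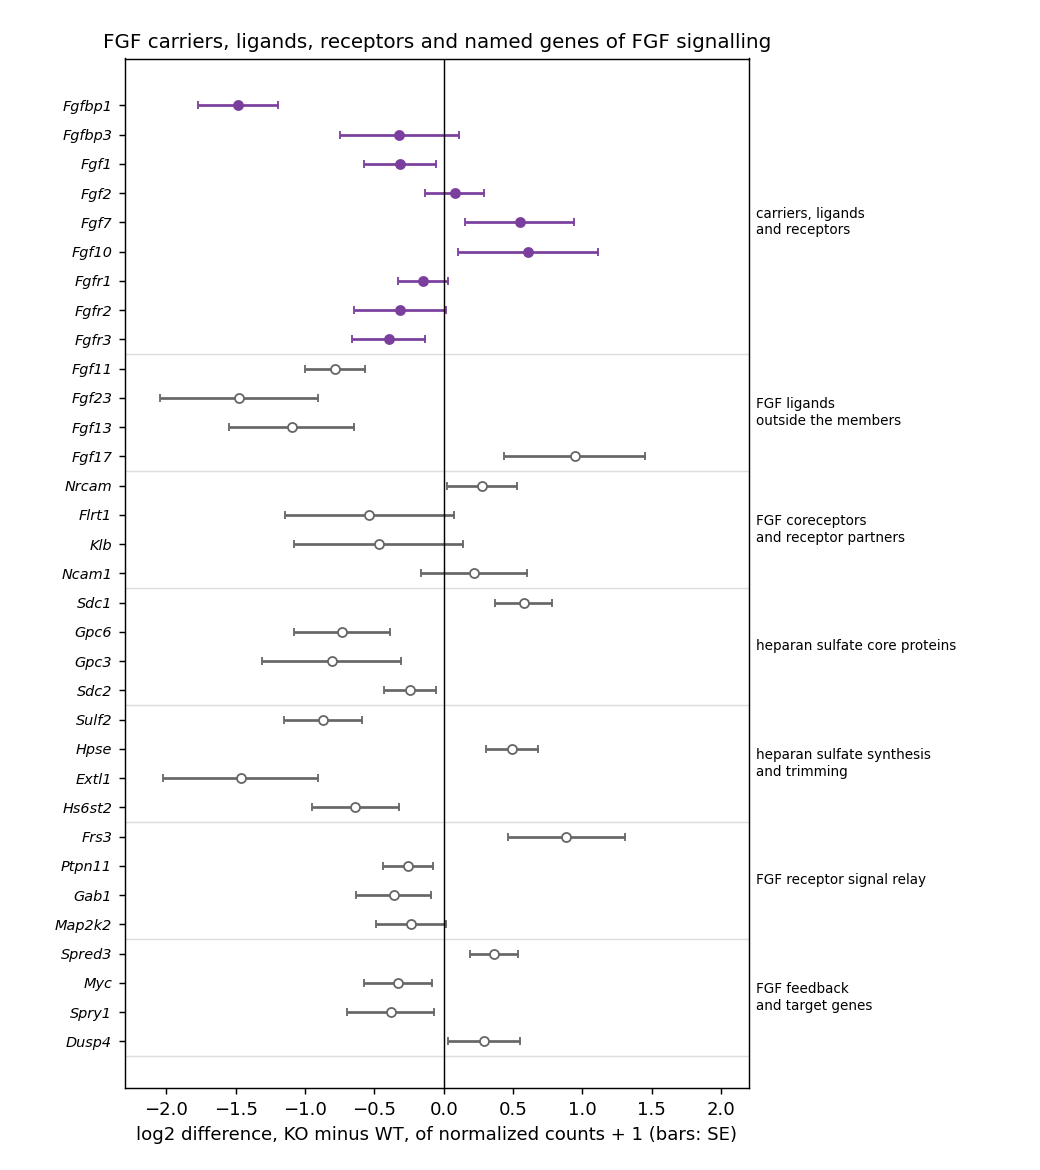
Log2 difference, KO minus WT, of normalized counts plus 1 (horizontal axis; bars are SE, n = 5 and 5 libraries) for the 9 carriers, ligands and receptors (filled) and for up to 4 genes of each of 6 lists of FGF signalling genes with the smallest p (open). Fgfbp1 at -1.48 lies farthest from 0 in the upper set, and none of the open points passed the adjusted threshold.

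The genes whose level followed Fgfbp1 most closely depended on whether the genotype difference was kept. Over the 10 libraries, among the 12934 genes averaging 50 or more normalized counts, the highest Pearson correlations of log2 level with Fgfbp1 were those of Myo5b (0.913), a motor of apical recycling, Slc4a4 (0.902), a bicarbonate transporter, Pank1 (0.895), Atp2b4 (0.893), a calcium pump, and Dsc2 (0.893), a desmosomal cadherin. Each had a higher mean in WT than in KO libraries, which this ranking favours because Fgfbp1 separates the genotypes. When each library was expressed as its deviation from its own group's mean, the highest were Nod2 (0.940), A530040E14Rik (0.925), Gbp5 (0.915), Cmpk2 (0.904) and Cd274 (0.888), where Nod2 is a sensor of bacterial peptides, Gbp5 a guanylate-binding protein and Cd274 the ligand PD-L1. With the genotype difference kept, these genes correlated with Fgfbp1 at 0.34, 0.10, -0.11, 0.68 and -0.11, in the same order. Means were higher in KO for Nod2, A530040E14Rik, Gbp5 and Cd274, and higher in WT for Cmpk2. The points share library depth and the cell makeup of each tumour, and the 5 genes of each list are the extremes of 12934.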

How the data were processed

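Total RNA of frozen tumour sections was sequenced after ribosomal RNA depletion with a protocol that adds unique molecular identifiers, per the labels' protocols; the submitters' processing notes name GRCm38 and bcl2fastq 2.17. The aligner, the counter, strand use and use of the identifiers are not given in the sources used here. The deposited table holds normalized counts, a signal unit: the authors divided whole read counts by a median-of-ratios size factor per library, which 100% of values returned within 0.01 of a whole read. The recovered totals were 8609756 to 19934428 reads; the lowest gene total was 101 reads, so very low genes were not analysed here. Gene names and exon lengths came from GENCODE M21 (17961 of 18047 identifiers matched), promoter windows from RefSeq.

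Genes with a mean of at least 10 (17975 tested, 72 below) were fitted with limma 3.58.1 on log2 of the value plus 1, with an intensity trend, 5 KO against 5 WT, two-sided, Benjamini-Hochberg adjustment over all genes at 0.05; this limma fit was tested on simulated data. The added 1 shrinks log2 differences of low genes. edgeR 4.0.16 and DESeq2 1.42.0 on the recovered reads were alternatives. The limma scale still gave differences larger in size than edgeR and DESeq2 for the low genes Fgfbp3, Fgf10, Fgf23, Flrt1, Klb and Frs3. It gave smaller ones for Fgf13, Fgf17 and Extl1, so low-gene values on this scale are not always understated. Named genes were all of the 10 present, up to 4 genes per list with the smallest p, and the 5 genes most correlated with Fgfbp1 over libraries and within groups. The 10 genes, the lists and the rules were chosen with earlier results of these data known. WT2 and WT5 differed by more than sampling noise, as did every other pair of libraries within a genotype. This cannot tell whether they come from 1 tumour, and they were kept as separate libraries. The level of the targeted gene and 1 relay gene are not reported here.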

Additional observations from a re-analysis of the deposited data

Results flagged for a closer look

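Fgfr1 in WT5 was at 522.8 normalized counts, far below the other 4 WT libraries at 765.4 to 852.2. Its gap to the nearest of them was 0.737 of the group's whole range, above Dixon's limit of 0.71 for 5 samples. Of 18 gene and group combinations examined, 1 was singled out in this way, and chance singles out about 1 in 20.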

How the results depend on the processing

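Fgfbp1 kept its sign in all 29 alternatives, from -1.71 to -1.03 on the log2 scale; its adjusted p is not given because the gene was chosen on this contrast. The count of genes called, 1 with limma, was 121 with DESeq2, 408 with array weights (233 higher, 175 lower), 52 within the libraries without the RESUB prefix (1 WT library), and 0 within the prefixed libraries (1 KO library), with WT2 and WT5 as their mean, without WT2, WT3 and WT5, and with the keratinocyte, fibroblast or adipocyte covariate; leaving out each library gave 0 to 3. Array weights alone called Fgf11 (-0.78), Sdc1 (0.64), Sulf2 (-0.92) and Hpse (0.73). With the prefix as a term, Nrcam turned to -0.12 and Map2k2 to 0.17; within the prefixed libraries Nrcam was -0.12. Within the unprefixed libraries Nrcam was -0.11, Klb 0.018, Map2k2 0.35, Myc 0.071 and Spry1 0.27. With the carcinoma covariate Flrt1 was 0.47, Klb 0.54, Ncam1 -0.19, Gab1 0.077, Myc 0.048 and Spry1 0.082. Klb was 0.22 and Ncam1 -0.053 with the adipocyte covariate, Ncam1 -0.47 with the keratinocyte covariate, and Ncam1 -0.55 and Gab1 0.073 with array weights. Without WT2, WT3 and WT5, Ncam1 was -0.55 and Dusp4 -0.12. Leaving out each library gave -0.98 to 0.036 for Flrt1, -0.80 to 0.0031 for Klb and -0.033 to 0.54 for Ncam1. Among the carriers, ligands and receptors, values moved beyond the spread between libraries within the prefixed libraries (Fgfbp3 0.82, Fgf1 -1.13, Fgf2 0.48, Fgfr1 -0.60), within the unprefixed ones (Fgfr1 0.42), with the carcinoma covariate (Fgf2 -0.37, Fgf7 -0.24, Fgfr2 0.44) and with the keratinocyte covariate (Fgfr3 0.019). List medians moved likewise: coreceptors to -0.31 without WT2, WT3 and WT5 and 0.23 with the carcinoma covariate, heparan sulfate core proteins to -0.60 within the prefixed libraries, synthesis and trimming to -0.12 with the carcinoma covariate, and signal relay to 0.043 with array weights, 0.047 without WT4 and 0.052 with the carcinoma covariate. The cause of these changes was not tested.

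With the replicate number as a block, the count stayed at 1 and Fgfbp1 at -1.48. Correlations of the deviations of same-numbered libraries were 0.0172, 0.0993, 0.518, 0.0258 and -0.229 for replicates 1 to 5. Replicate 3 alone matched its own number best. What same-numbered libraries share beyond the number was not tested. Depth limits the low genes: the lowest library held 1 read of Fgf23, 2 of Klb, 3 of Extl1 and of Flrt1, 4 of Frs3, Fgf13 and Fgf17, and 6 of Fgfbp3 and of Fgf10.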
